A study of Sus scrofa with 4 samples.

Results

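IL2RG and 3 receptor chains that work with it or beside it, IL2RA, IL4R and IL7R, were read on microarrays of pig spleen RNA. Members were chosen by the pig RefSeq transcript that the array design gives for a probe, without regard to its signal, and every probe of these transcripts was kept. This gave 4 of the 3020 genes named on the array, with 6 of its 43603 probes: 2 probes for IL2RG (A_72_P303129 and A_72_P572539), 1 for IL2RA (A_72_P303174), 1 for IL4R (A_72_P088511) and 2 for IL7R (A_72_P674582 and A_72_P237197). The series held 4 arrays of spleen from Minnesota miniature swine. Of these, 3 carried RNA of wildtype pigs (WT 1, WT 2 and WT 3) and 1 carried RNA with the genotype IL2RG +/-. Per the study, the edit was made with TALENs, designed nuclease pairs aimed at exon 2 of IL2RG, in cultured cells that kept an unedited copy, and the animals were cloned from several edited colonies by nuclear transfer. The knockout animals used for arrays were those that had a thymus, which most knockouts lacked, and no source ties the IL2RG +/- array to 1 colony, animal or age. No source says whether the WT arrays came from separate animals, so the spread among them may be partly technical.

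The common gamma chain, encoded by IL2RG on the X chromosome, is a shared subunit of the receptors of several interleukins that drive the growth and survival of lymphocytes. It has no cytokine of its own and signals only beside a partner. IL2RA (CD25) raises the affinity of the IL2 receptor and marks activated and regulatory T cells. IL4R pairs with the gamma chain for IL4, or with IL13RA1 for IL4 and IL13, and is found on lymphocytes and on macrophages. IL7R (CD127) pairs with the gamma chain for IL7 and is carried by T cells and their precursors. In the cell, the gamma chain binds JAK3, IL4R and IL7R bind JAK1, and both kinases act on STAT transcription factors.

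Signals are given in 2 forms. The processed signal is the brightness of a spot after background correction, with the error that the extraction software estimates for it. The log2 signal is the processed signal after log2 transformation and subtraction of the 75th percentile of its array, so that a value of 0 stands for that percentile. A difference is the log2 signal of the IL2RG +/- array minus the mean of the 3 WT arrays. Levels of different probes cannot be compared, and no gene is ranked above another. The arrays lay on 2 slides with 1 scan day each, WT 1 and IL2RG +/- on slide 1 and WT 2 and WT 3 on slide 2. The difference of each of the 6 probes is therefore also given against WT 1 alone. For most other genes only the difference from the WT mean is given. Well above background were between 66.1% and 72.7% of the 43803 spots other than controls. The 75th percentile lay between 640 and 820 units. All 6 probes passed the filter of well above background on at least 1 array, which 33469 probes passed, and 5 of the 6 were well above background on all 4 arrays.

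IL2RG was lower on the IL2RG +/- array than on each WT array at both of its probes, as were 34.9% of all probes tested, but by unequal amounts. The brighter probe had a processed signal of 410 ± 41.1 in WT 1, of 289.7 ± 29.2 in WT 2, of 293 ± 29.5 in WT 3 and of 164 ± 16.5 in IL2RG +/- (software error of 1 spot). The corresponding log2 signals were -0.64, -1.49, -1.48 and -1.98. WT 2 and WT 3 were alike and WT 1 stood above them by 0.84, so the gap between slides among the WT arrays was as wide as the gap between genotypes. IL2RG +/- thus differed from the WT mean by -0.77 (SE 0.48), with a 95% interval from -2.11 to 0.56 (limma, adjusted p = 0.578). Of all probes tested, 18.6% had a difference at least this low.

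The dimmer probe of IL2RG had a processed signal of 283 ± 28.5 in WT 1, of 189 ± 19.3 in WT 2, of 181 ± 18.5 in WT 3 and of 41.8 ± 4.90 in IL2RG +/-. The log2 signals were -1.18, -2.11, -2.18 and -3.95. WT 1 was again above WT 2 and WT 3, which were alike, and IL2RG +/- lay 3.40-fold below the lowest of them. This put it -2.12 from the WT mean (4.36-fold lower, SE 0.53), with a 95% interval from -3.61 to -0.64. With normexp background correction of the raw median signals it was -1.04 (2.06-fold lower). It had an unadjusted limma p of 0.0167 and did not pass adjustment over all probes (limma, adjusted p = 0.403). A difference at least this low was found for 2.39% of the probes tested.

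**Figure D1:**
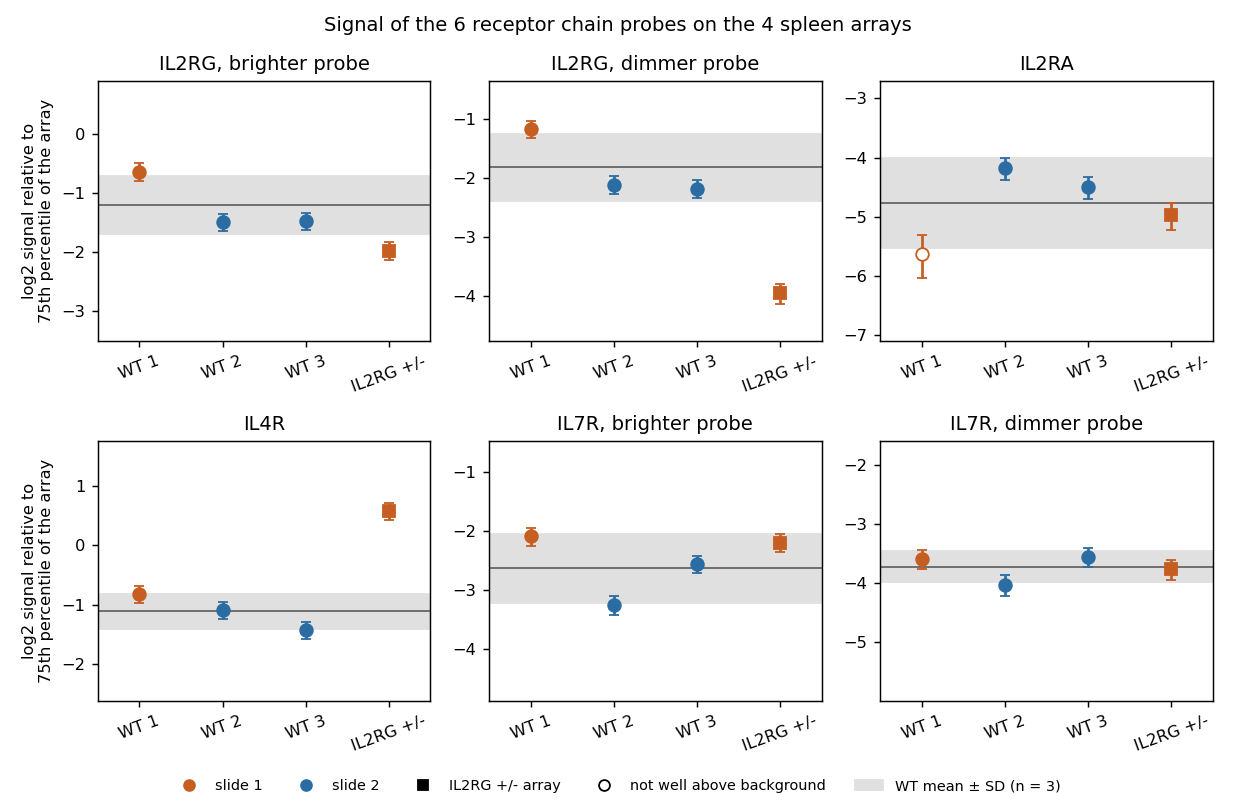
Log2 signal minus that of each array's 75th percentile (vertical axis, same span in each panel) of the 6 probes on the 4 arrays. Points are single arrays with the software's error of the spot, colours mark the slide, squares the IL2RG +/- array, and the open circle a spot not well above background; the line and band are the WT mean ± SD (n = 3). IL2RG +/- lies below all WT arrays at both IL2RG probes, above them at IL4R, and among them at IL2RA and IL7R.

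Within slide 1, where IL2RG +/- and WT 1 shared the slide and the scan day, the log2 difference was -1.34 on the brighter probe and -2.77 on the dimmer probe. A difference from WT 1 at least this low was found for 4.73% and 0.953% of the probes tested. Both IL2RG values were thus larger within the slide than against the mean of all WT arrays, because WT 1 was the highest array at both probes. Without WT 1 the differences were -0.49 and -1.80. The remaining WT arrays were both on slide 2, so genotype and slide cannot be told apart there.

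The probes of IL2RG moved apart on the IL2RG +/- array. The brighter probe exceeded the dimmer one by a log2 value of 0.53 on WT 1, 0.62 on WT 2 and 0.70 on WT 3, and by 1.97 on IL2RG +/-. The gap of IL2RG +/- lay 1.35 above the WT mean of 0.62 ± 0.083 (SD, n = 3), outside the narrow WT range. Among 8913 pairs of probes that share a named transcript and were well above background on all 4 arrays, 119 pairs (1.34%), this one included, had differences at least this far apart, and the median was 0.16. These pairs are not independent, as many share a probe. The dimmer spot was 2.80 times its local background on IL2RG +/- and between 7.97 and 9.74 times on the WT arrays. With normexp, which corrects the background another way, the gap was 0.62, 0.66 and 0.74 on the WT arrays and 1.12 on IL2RG +/-, so that it lay 0.45 above the WT mean and 14.5% of the pairs were at least this far apart. The IL2RG +/- array was outside the WT range under both corrections, but the size of the gap depended on the correction. Probe sequences were not used here, so where either probe lies relative to the edited site in exon 2 is not known, and the signals are no check of the edited allele.

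IL4R, the chain that binds IL4, was the member whose signal on the IL2RG +/- array lay above all WT arrays, as did 27% of all probes tested. WT 1 gave a processed signal of 360.4 ± 36.2, WT 2 of 382 ± 38.4, WT 3 of 304 ± 30.6 and IL2RG +/- of 961 ± 96.2. The log2 signals were -0.83, -1.09, -1.43 and 0.57. The WT arrays lay within 0.60 of each other, and IL2RG +/- was 2.65-fold above the highest of them. From the WT mean it differed by 1.69 (3.23-fold higher, SE 0.36), with a 95% interval from 0.69 to 2.70. It had an unadjusted limma p of 0.00968 and did not pass adjustment over all probes (limma, adjusted p = 0.387). A difference at least this high was found for 2.61% of the probes tested. Within slide 1 it was 1.403, which 4.26% of probes reached.

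IL2RA was dim on every array and lay within the WT range. WT 1, where it was not well above background, gave a processed signal of 12.9 ± 3.23, WT 2 of 45.0 ± 5.81, WT 3 of 36.3 ± 4.75 and IL2RG +/- of 20.5 ± 3.19. The WT log2 signals of -5.63, -4.18 and -4.50 spread over 1.45, and the IL2RG +/- value was -4.98. Both arrays of slide 1 were below both arrays of slide 2. The difference was -0.21 (SE 0.68; limma, adjusted p = 0.912), and its 95% interval from -2.11 to 1.69 holds changes of more than 2-fold either way. The sign was not stable, since IL2RG +/- was above WT 1 on slide 1 by 0.65, the difference was 0.11 under quantile normalisation and 0.037 when arrays were aligned on their medians.

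IL7R also lay within the WT range, on both of its probes. Its brighter probe read 150.1 ± 15.4 units of processed signal in WT 1, 85.5 ± 9.44 in WT 2, 139 ± 14.3 in WT 3 and 140.5 ± 14.3 in IL2RG +/-. The log2 signals were -2.09, -3.26, -2.56 and -2.201, with WT 2 the lowest array. The difference was 0.44 (SE 0.55) with a 95% interval from -1.09 to 1.97 (limma, adjusted p = 0.758), and within slide 1 it was -0.11.

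The dimmer probe of IL7R read 53.1 ± 6.14 units of processed signal in WT 1, 49.99 ± 6.14 in WT 2, 69.8 ± 7.69 in WT 3 and 47.4 ± 5.34 in IL2RG +/-. The log2 signals were -3.59, -4.03, -3.55 and -3.77. WT 2 was again the lowest, and all 4 arrays lay close together. The difference was -0.044 (SE 0.34) with a 95% interval from -0.99 to 0.90 (limma, adjusted p = 0.966). It changed sign under quantile normalisation, to 0.24, and under the median alignment, to 0.20. Within slide 1 it was -0.18. The IL7R probes differed in their difference by 0.48, and 11.2% of the probe pairs were at least this far apart.

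**Figure D2:**
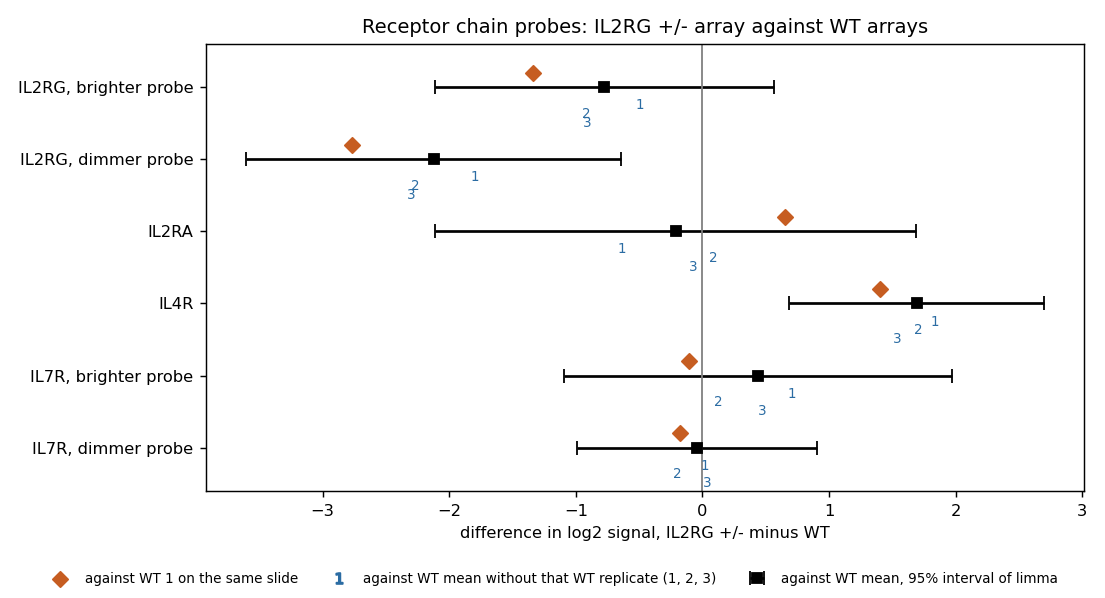
Difference in log2 signal between the IL2RG +/- array and the WT arrays (horizontal axis) for the 6 probes. Squares with bars are the difference from the WT mean with the 95% interval of limma, diamonds the difference from WT 1 on the same slide, and digits the difference without that WT replicate; the intervals of the dimmer IL2RG probe and of IL4R lie on 1 side of 0, and those of the other 4 probes span it.

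Read together, 0 of the 6 probes passed the limma threshold of an adjusted p of 0.05 with a 2-fold difference, and 0 of 33469 probes (0%) passed it. An unadjusted limma p under 0.05 was reached by 2 of the 6 probes, the dimmer IL2RG probe and IL4R, against 11.3% of all probes, and the methods' t-test after Benjamini-Hochberg adjustment called 0 of the 6. Over all probes, 4 passed with normexp background correction and 6 with a trended eBayes prior, and 0 of these were the 6 probes. Below all WT arrays were 2 of the 6, against 34.9% of all probes, and above all WT arrays was 1, against 27%. At least 2-fold lower was 1 probe, against 13.4%, and at least 2-fold higher was 1, against 7.71%. Within slide 1, 2 probes were at least 2-fold below WT 1, against 8.07%, and 1 was at least 2-fold above it, against 7.94%. A count of 1 or 2 in 6 probes is too small to set apart from these shares.

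**Figure D3:**
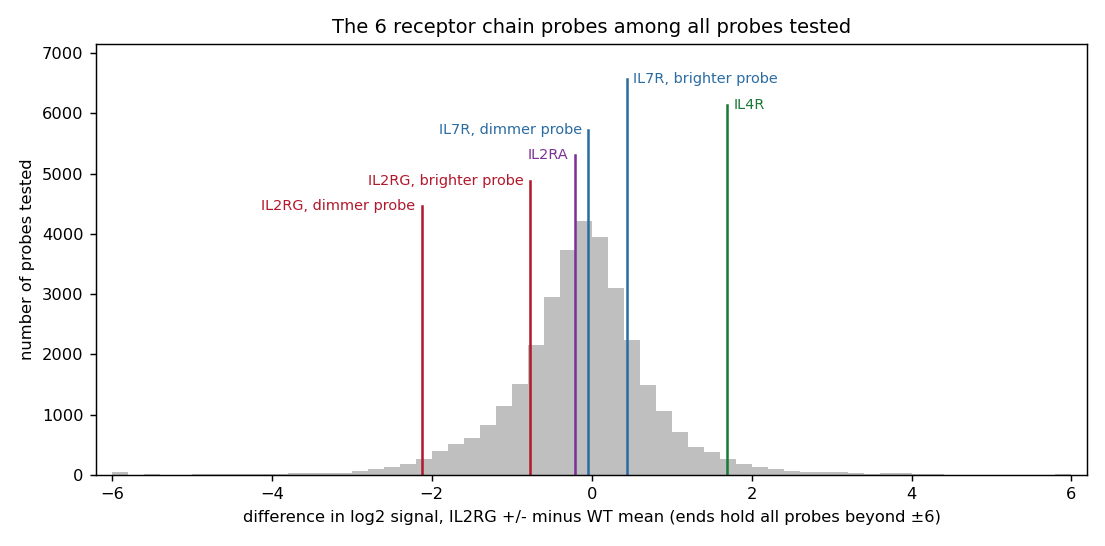
Number of probes (vertical axis) by their difference in log2 signal between the IL2RG +/- array and the WT mean (horizontal axis), for all 33469 probes tested, with the 6 receptor chain probes as lines. The dimmer IL2RG probe and IL4R lie in opposite flanks of the distribution, and the other 4 lie in its body.

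The chains were next compared with each other on the same array, which removes any scaling of the whole array. For each of 6 pairs of genes, the log2 signal of one brighter or sole probe was subtracted from that of the other, and the change of this value between genotypes was taken. IL2RG minus IL4R was 0.19, -0.40 and -0.052 in WT 1, WT 2 and WT 3 and -2.56 in IL2RG +/-. Relative to IL4R, IL2RG was therefore 5.53-fold lower on the IL2RG +/- array than on the WT arrays, a shift of -2.47 against a WT SD of 0.29. IL2RG minus IL7R was 1.45, 1.76 and 1.08 on the WT arrays and 0.22 on IL2RG +/-, a shift of -1.21. IL4R minus IL7R was 1.26, 2.16 and 1.13 on the WT arrays and 2.77 on IL2RG +/-, a shift of 1.26.

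In these 3 pairs, and in IL2RA minus IL4R with a shift of -1.90, the IL2RG +/- array lay outside the WT range. In IL2RG minus IL2RA and IL2RA minus IL7R it lay within, with shifts of -0.56 and -0.65. The sizes of the 3 shifts that involve IL2RA rest in part on WT 1, where IL2RA was not well above background. The two-sided exact permutation test over 4 arrays cannot give a p below 0.25, which the 4 former pairs reached, and adjusted over the 6 pairs the p was 0.375. The pairs share genes and arrays and are not independent. Of all single probes tested, 34.9% lay below all WT arrays and 27% above, and no share was taken over pairs of other genes. The count of 4 in 6 pairs is therefore not read as a result about these chains.

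The rest of the pathway was read from a list of 36 genes, of which 24 had a named probe and 21 were tested. IL2RB, IL15RA, IL9R, IL21R, CRLF2 and JAK3 had no probe matched to a symbol and were not analysed here. Of the 21 genes, 0 passed the threshold and 5 had an unadjusted limma p under 0.05, beside 11.3% of all probes. Above all WT arrays were 12 and below all were 2, beside 27% and 34.9% of all probes, and 8 were at least 2-fold higher and 0 at least 2-fold lower, beside 7.71% and 13.4%. These counts hold 4 genes near background, of which IL21 passed the filter through the IL2RG +/- array alone. Among the 17 genes well above background on all 4 arrays, 10 were above and 2 below all WT arrays. Of these 17, 6 were at least 2-fold higher and 0 at least 2-fold lower. Their median difference was 0.57, beside -0.054 over all probes well above background on all 4 arrays. Within slide 1 it was 0.46, beside -0.026 over all 33469 probes tested.

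IL13RA1, which joins IL4R in the second type of IL4 receptor, was the only other receptor chain tested. Its log2 signal was -1.97, -1.98 and -1.90 on the WT arrays and -0.74 on IL2RG +/-. The WT arrays nearly coincided, and IL2RG +/- was above them by a difference of 1.21 (limma, adjusted p = 0.388). IL4R and IL13RA1 were thus both higher on that array, while IL2RG was lower, though none of these passed adjustment.

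Among the ligands, IL15, a growth factor of NK cells and memory T cells, stood furthest out. Its log2 signal was -0.57, -1.34 and -1.19 on the WT arrays and 1.71 on IL2RG +/-, a difference of 2.74 (limma, adjusted p = 0.315). IL7, the ligand of IL7R, differed by -0.12 within the WT range, a sign that turned under quantile normalisation and the median alignment. IL2, IL4 and IL21 were near background, each well above it on fewer than 4 arrays, and IL9 and IL13 were well above it on 0 arrays.

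All 3 kinases tested were above the WT range, beside 27% of all probes, by less than 2-fold beyond its highest array. Under normexp 2 of them were above it. JAK1, the kinase carried by IL4R and IL7R, differed by 0.57, and by 0.20 within slide 1. All 4 STAT genes read here were above the WT range as well, again beside 27% of all probes. They were so under each of the 4 other scalings, which use the same arrays. Their median difference was 1.09, and 0.86 within slide 1. STAT6, which IL4R activates, was 0.096, -0.16 and -0.45 on the WT arrays and 0.70 on IL2RG +/-, a difference of 0.87 (limma, adjusted p = 0.464). The 4 STAT3 probes had differences from 0.85 to 1.53, so not every one was 2-fold above the WT arrays. The 2 STAT5A probes had 1.31 and 1.60. At least 2-fold above the highest WT array on their brightest probes were STAT3, with 1.53, and STAT5A, which acts below IL2 and IL7, with 1.31. Their adjusted limma p values were 0.387 and 0.410.

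The feedback and target genes showed no common direction, with 3 of 8 higher and 5 lower. The median alignment, which raises the difference of every gene by the same amount, put 6 above 0 and 2 below. SOCS3, an inhibitor of cytokine receptors that STAT3 induces, was -3.57, -3.57 and -3.63 on the WT arrays and -2.27 on IL2RG +/-, a difference of 1.32 (limma, adjusted p = 0.377). SOCS2, which STAT5 induces, differed by -0.21 within the WT range, and by 0.19 on its other probe. BCL2L1, a survival gene, was below all WT arrays with a difference of -0.98 (limma, adjusted p = 0.461). FOXP3, the factor of regulatory T cells that carry IL2RA, was dim and differed by -0.084 within the WT range.

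**Figure D4:**
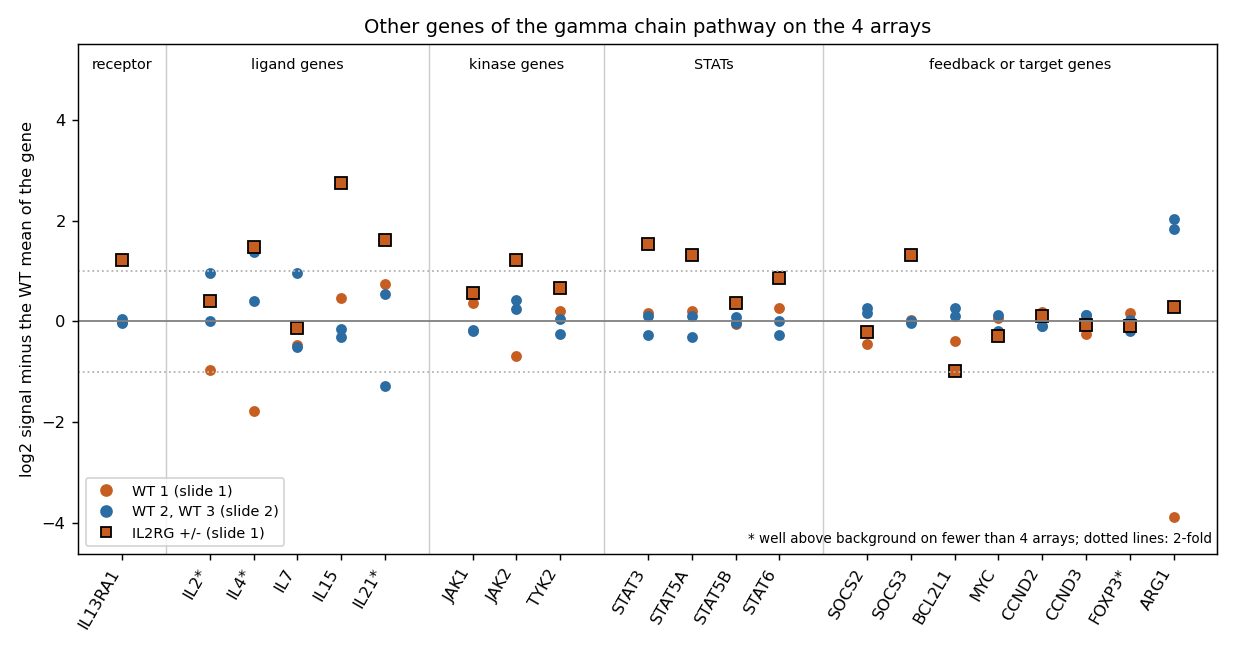
Log2 signal minus the WT mean of the gene (vertical axis) for 21 other pathway genes, grouped by role. Circles are WT arrays and squares the IL2RG +/- array, coloured by slide, and asterisks mark genes well above background on fewer than 4 arrays. Kinase and STAT genes lie above all WT circles, as do 27% of all probes tested, while target genes lie on both sides.

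Whole spleen was measured, so fewer cells of a type and less RNA per cell cannot be told apart in any of these values. CCL19 and CCL21, chemokines of T cell zones, were the only 2 of 7 stroma genes tested. Both were well above background on all 4 arrays, with differences of 1.03 and -2.18. They are not particular to spleen, so their detection does not check the tissue. TLX1 and NKX2-5, which mark spleen more strictly, had no named probe and were not analysed here. Among markers of cells that carry the chains, those of B, T and NK cells had differences of both signs, and 0 markers passed the limma threshold. Of 8 B cell genes 3 were tested. MS4A1 and CD79A had differences of -4.92 and -4.12, CD72 had 1.49, and the summed linear signal was between 3.51 and 7.502 on the WT arrays and 5.21 on IL2RG +/-, where CD72 made up most of it. Of 13 T cell genes 8 were tested, with 5 higher, 3 lower and a median of 0.16, and 4 higher under 3 of the 4 other scalings. Within slide 1 the T cell median was -0.21. CD8A and CD4 had differences of 1.78 and 1.73 on their brightest probes, and the summed signal was 24.4 to 75.6 on the WT arrays and 38.5 on IL2RG +/-. Of 9 NK cell genes 4 were tested, 2 of them higher, with NKG7 at 1.24 and NCR1 at -1.16 and a summed signal of 8.88 to 38.5 against 25.6. The NK cell median was 0.24, and -0.96 within slide 1. Of 11 macrophage genes 6 were tested and 6 were higher, FCGR1A by 3.89 and MRC1 by 3.25 among them, with a summed signal of 14.2 to 178 against 219. Above all WT arrays were 4 of them, beside 27% of all probes. VSIG4, on its brightest probe, and SIGLEC1 lay within the WT range, at 5.53 and -0.031 within slide 1. The 5 VSIG4 probes tested had differences from 0.41, on the brightest, to 5.36. VSIG4 made up most of the highest WT sum, and CD163 most of the IL2RG +/- sum. All sums are in units of the 75th percentile of the array.

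Other markers separated WT 1 from WT 2 and WT 3. Over 4 of 8 granulocyte genes, WT 1 had a summed signal of 1.26, WT 2 of 15.7, WT 3 of 99.6 and IL2RG +/- of 12.7, with LTF at -1.57 and S100A12 at 0.61. Over 3 of 7 erythroid genes, the sums in the same order were 1.61, 30.0, 38.7 and 2.60, with KLF1 at -4.43 and EPOR at -2.33. Within slide 1 LTF was at 2.19, S100A12 at 3.78, KLF1 at 1.51 and EPOR at -0.41, so LTF and KLF1 changed sign. The WT order of IL2RG, highest on WT 1, and of IL2RA, lowest on WT 1, ran beside the WT shifts of these markers. The part of any of these cell markers in the values of the 4 receptor chains was not tested.

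Genes whose pattern over the 4 arrays was most like that of each probe were named by the smallest root mean square (RMS) difference after centring, among 2432 named genes well above background on all arrays. With 4 arrays this is a description. For the dimmer IL2RG probe they were CCR9, a chemokine receptor of gut-homing lymphocytes, SLC5A10 and CCL21, with RMS differences of 0.083, 0.16 and 0.23, and 4 genes came within 0.25. CCR9 was -1.81, -2.91 and -2.99 on the WT arrays and -4.81 on IL2RG +/-, which follows the IL2RG probe array by array. For the brighter probe they were SLC5A4, AMPD1 and CHIA, with RMS differences of 0.11, 0.13 and 0.13. For the brighter probe 37 genes came within 0.25, so its 3 nearest are few of many. No gene was shared between the 3 nearest of each IL2RG probe.

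For IL4R the nearest included IFI30, an enzyme of the lysosome, and NR4A3, a nuclear receptor, with RMS differences of 0.072 and 0.090. IFI30 was 4.36, 4.10 and 3.67 on the WT arrays and 5.59 on IL2RG +/-, and 91 genes came within 0.25 of IL4R. For IL2RA they were CRISP2, ADIPOR1 and FST (0.050, 0.068 and 0.092). For IL7R they were ASPA, MTPN and APPL2 at the brighter probe (0.078, 0.086 and 0.095) and LCORL, GHR and DICER1 at the dimmer one (0.029, 0.058 and 0.070). Within 0.25 came 72 genes for IL2RA and 67 for the brighter IL7R probe. The dimmer IL7R probe varied little, and 478 genes came within 0.25 of it.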

How the data were processed

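Per the labels, the authors made Cy3-labelled cRNA from spleen RNA for 4 arrays, each with 1 sample. The deposited intensity is the background-corrected processed signal of Feature Extraction 11.0.1.1, not normalised between arrays; the file headers list 1 channel, whereas the methods of the study name a dye pair. Raw median intensities deposited beside it were used for normexp. The deposited series table of log2 values served as an alternative; its columns share 1 distribution, as quantile normalisation gives.

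Spots flagged as outliers were left out, which removed 28 of 43603 probes, none of them a member; no spot was saturated. Each array's 75th percentile was subtracted from log2 signals, spots of a probe were averaged, and probes well above background on at least 1 array were fitted by lmFit and eBayes (limma 3.58.1, run under R 4.3.3). Tests were two-sided, p-values were adjusted by Benjamini-Hochberg over 33469 probes, and the procedure was tested on simulated data. The design has 2 residual and 1.93 prior degrees of freedom, all spread comes from the 3 WT arrays, and the lone IL2RG +/- array was assumed to vary like them. The small number of arrays limits the precision. Probes were named through RefSeq transcripts of Sscrofa11.1, which gave a symbol for 6686 probes (15.3%), and a gene outside the members is given by its brightest probe. No coordinates are given, since the files name no build.

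Named were every member probe, pathway genes at least 2-fold outside the WT range with JAK1 and JAK3, the 2 marker genes of each cell type with the largest difference, and the 3 genes nearest to each member probe. CD72, CD163, VSIG4, SIGLEC1, and the pathway genes IL2, IL4, IL7, IL21, STAT6, SOCS2, BCL2L1 and FOXP3, fall outside this rule and were chosen after their values were seen. Some genes that the rule or the lists would name are not reported here. The members and lists were chosen with earlier results of these data known. Alternatives were 4 scalings, the series table, 2 filters, the slide as a block, eBayes with a trend, the methods' t-test, the mean of a gene's probes, and each WT array left out.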

Additional observations from a re-analysis of the deposited data

How the results depend on the processing

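IL2RG kept its negative sign and IL4R its positive sign under all 14 alternatives. Both filters, eBayes with a trend and the methods' t-test leave a difference as it is, so they could not change a sign. For IL4R, with a sole probe, neither could the mean of a gene's probes. The brighter IL2RG probe lay between -1.34 and -0.49, the mean of both IL2RG probes at -1.45, and IL4R between 1.38 and 1.94. The dimmer IL2RG probe stayed negative under 13, between -2.77 and -1.04, the last under normexp. The gap between the IL2RG probes lay between 1.24 and 1.35 under the other scalings and was 0.45 under normexp, a comparison added after seeing the data, as was that of pathway genes well above background on all 4 arrays. The adjusted p ranged from 0.222 to 0.980 for the brighter IL2RG probe, from 0.0753 to 0.980 for the dimmer one and from 0.0801 to 0.980 for IL4R, the low ends without WT 1 and the high ends without WT 2, and 0 member probes and 0 pathway genes passed under any alternative. IL2RA changed sign to 0.11 under quantile normalisation, 0.65 when the slide was a block and 0.037 after a shift to the array median, and ranged from -0.64 to 0.086 when 1 WT array was left out; the deposited table and the filter on all 4 arrays hold no IL2RA value. The brighter IL7R probe changed sign to -0.11 with the slide as a block. Its value within slide 1 changed to 0.015 under quantile normalisation and 0.044 after the shift to the median. The dimmer IL7R probe changed to 0.24 under quantile normalisation, 0.036 under normexp, 0.20 after the shift to the median and 0.21 in the deposited table, and ranged from -0.20 to 0.041 with 1 WT array left out. The causes were not tested. Without WT 1, only IL2RG +/- was left on slide 1, so genotype and slide cannot be told apart in that alternative. The median over all probes was -0.11 as reported, 0.14 after the shift to the median, -0.024 under quantile normalisation and -0.22 where the percentile was taken over detected probes only. Relative to the median of each scaling, IL2RG lay between -0.67 and -0.57 on the brighter and between -2.01 and -1.02 on the dimmer probe, IL4R between 1.41 and 1.80, IL2RA between -0.10 and 0.13, and IL7R between 0.43 and 0.66 on the brighter and between 0.059 and 0.26 on the dimmer probe. Normexp on mean signals, as planned, was not run; median signals were used in their place, a choice made after seeing the data. No paired analysis was possible, because there is a single IL2RG +/- array and no label ties it to a WT animal. The slide as a block, given above, compares it with WT 1 alone.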
